A study of Mus musculus with 4 samples.

Results

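The colony-stimulating factors and their receptors were followed through the cells of mouse mammary tumours as 7 genes: the ligand genes Csf1, Il34 and Csf3 and the receptor genes Csf1r, Csf2ra, Csf2rb and Csf3r. The genes were taken by symbol, and each matched 1 of the 55472 entries of the gene table. Cells were sorted into 6 gates by UMI counts (UMIs, unique molecular identifiers, stand for captured RNA molecules). The gates were basal (Krt5 and Krt14 together at 3 or more), fibroblast (Col1a1 and Col3a1 at 10 or more), mural, the cells that wrap small vessels (Rgs5 at 3 or more), endothelial (Cdh5 and Pecam1 at 2 or more), myeloid (C1qa and C1qb at 5 or more) and luminal (Krt8 and Krt18 at 3 or more). A cell in 1 non-luminal gate was placed there, a cell in several was left out (171 cells), and the luminal gate took cells of no other gate. Of the cells kept, 8386 met none of these gates and no leukocyte rule, and are called ungated.

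The samples were 4 untreated tumour libraries from 3 female mice of 13 to 14 weeks on an FVB background, and no control tissue was compared. All mice carried MMTV-PyMT, a viral oncogene driven by a promoter active in mammary epithelium, together with K14Cre, a recombinase under a human keratin promoter, and the Cre-dependent reporter Rosa-tdTomato. Tumour 1 pooled several glands of mouse 1, tumour 2 came from mouse 2, and tumours 3 (thoracic gland) and 4 (inguinal gland) both came from mouse 3, so that 3 mice were the replicates. The tissue was digested with enzymes and dead cells were removed by magnetic separation, and cell types were not enriched.

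CSF1 and IL-34 are secreted proteins that bind the same receptor tyrosine kinase, CSF1R, which macrophages and their precursors need for survival and growth. CSF2 (GM-CSF) binds a receptor of a specific alpha chain, Csf2ra, and a shared beta chain, Csf2rb, which the receptors for IL-3 and IL-5 also use. CSF3 (G-CSF) acts through Csf3r, best known from neutrophils, and the CSF1 axis is known in mammary tumours for its part in the recruitment of macrophages.

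The promoters of 3 of the 6 members looked up were found in the RefSeq table for GRCm38.p6, from 250 bases before to 50 after the start. Il34, Csf3 and Csf2rb had no entry there, and Csf1r was not looked up. Of those shown, Csf2ra and Csf3r had the myeloid gate as their highest gate, while Csf1 did not. Capitals mark GAGGAA, the core bound by PU.1 (the product of Spi1), searched on both strands. Each is printed 5′ to 3′ on the gene's own strand. The Csf1 promoter lies at chr3:107760420-107760719 (minus strand), that of Csf2ra at chr19:61228369-61228668 (minus strand) and that of Csf3r at chr4:126024409-126024708 (plus strand).
Csf1: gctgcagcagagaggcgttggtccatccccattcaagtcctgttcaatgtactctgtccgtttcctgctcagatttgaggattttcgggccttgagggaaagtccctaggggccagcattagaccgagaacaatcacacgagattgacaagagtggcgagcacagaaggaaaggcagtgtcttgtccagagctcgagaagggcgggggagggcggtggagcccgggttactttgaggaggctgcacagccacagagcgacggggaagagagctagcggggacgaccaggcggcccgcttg
Csf2ra: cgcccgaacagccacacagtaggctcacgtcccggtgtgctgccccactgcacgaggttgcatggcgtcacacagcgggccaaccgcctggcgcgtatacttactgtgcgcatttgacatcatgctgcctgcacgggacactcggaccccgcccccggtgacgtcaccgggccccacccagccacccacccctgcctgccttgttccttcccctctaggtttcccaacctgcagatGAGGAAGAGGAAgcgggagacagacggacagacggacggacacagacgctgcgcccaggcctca
Csf3r: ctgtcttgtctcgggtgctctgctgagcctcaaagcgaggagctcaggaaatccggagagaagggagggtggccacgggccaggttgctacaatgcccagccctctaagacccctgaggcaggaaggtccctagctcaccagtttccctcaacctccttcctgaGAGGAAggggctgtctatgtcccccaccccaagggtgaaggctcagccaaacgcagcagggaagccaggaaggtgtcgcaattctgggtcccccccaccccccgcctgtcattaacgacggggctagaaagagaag
The Csf2ra promoter held 2 adjacent copies of GAGGAA, at -14 and -8 from the RefSeq start. The Csf3r promoter held 1 at -86, and the Csf1 promoter held 0. The gene starts in GENCODE vM21, 61228429 for Csf2ra and 126024550 for Csf3r, lie upstream of the RefSeq starts used. Copies can therefore fall inside the GENCODE genes. GAGGAA was found in 28.3% of 32851 promoters of the same length, and these matches are a description of letters only. TGANTCA, the AP-1 motif, was in 7.81% of those promoters and in 0 of the 3 shown.

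The libraries of tumours 1 to 4 held 8724 to 9580 barcodes and 20281799 to 39370565 UMIs, and 36138 cells were kept. The gates held 940 basal, 1495 fibroblast, 240 mural, 629 endothelial, 3008 myeloid and 20571 luminal cells. The 5 gates other than the basal one held most of their own markers, with at least 7 of 8 genes in 10% or more of the cells of every tumour. The basal gate held 2 to 5 of its 8 markers at that share and luminal markers at 7912 to 24318 CPM (UMIs per 1000000 UMIs of the gate), and 30.2% to 89.1% of its cells also met the luminal threshold. It is therefore called by its keratin rule. The luminal threshold was also met by 6.60% to 18.9% of fibroblast, 22.5% to 46.3% of mural, 8.0% to 33.1% of endothelial and 7.58% to 25.7% of myeloid cells, and luminal markers reached 11152 CPM in the mural gate. Pairs of libraries shared 96 to 129 cell barcodes.

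Csf1, the main CSF1R ligand, was highest in fibroblasts. In the fibroblast gate it stood at 48.1, 86.2, 57.4 and 47.1 CPM in tumours 1 to 4, from 21, 61, 118 and 62 UMIs. In the luminal gate it stood at 5.43, 6.59, 5.82 and 7.05 CPM. Every fibroblast value was above every luminal value, and above the basal values of 23.9, 5.74, 9.03 and 8.01 CPM. The difference from the luminal gate was 3.29 on the log2 scale (SE 0.22, edgeR quasi-likelihood test, Benjamini-Hochberg adjusted p = 4.76e-12, higher in 3 of 3 mice). Of all genes tested, 49.9% were called in this comparison, in which 4 of 5 tested members were called. Fibroblasts also exceeded mural cells, by 3.94 (SE 0.57, edgeR adjusted p = 2.05e-05), higher in 3 of 3 mice, where 14.3% of all genes were called.

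The order of Csf1 below the fibroblast gate was not resolved. The means over mice were 62.6 ± 20.6 CPM (SD, n = 3) in fibroblasts, 12.7 ± 9.74 in the basal gate, 6.17 ± 0.643 in the luminal gate, 4.10 ± 3.99 in the mural gate, 3.87 ± 0.218 in the myeloid gate and 2.21 ± 2.04 in the endothelial gate. Fibroblast and basal gates differed (edgeR adjusted p = 8.92e-08), and no lower neighbours did (edgeR adjusted p of 0.487 to 0.916).

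Luminal cells, the most numerous gate, held much of the Csf1 RNA. Fibroblasts held 15.9%, 19.5%, 38.2% and 25.0% of the Csf1 UMIs of tumours 1 to 4, and luminal cells held 45.5%, 71.2%, 31.7% and 57.7%. Ungated cells held 3.83% to 30.3%. Only in tumour 3, of the 4 tumours, did the fibroblast share exceed the luminal share. Fibroblasts with a Csf1 UMI made up 9.43% to 25.9% of the gate, against 1.53% to 2.74% of luminal cells, although luminal cells were deeper (median 2655.5 to 3664 UMIs against 1812 to 3447).

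**Figure D1:**
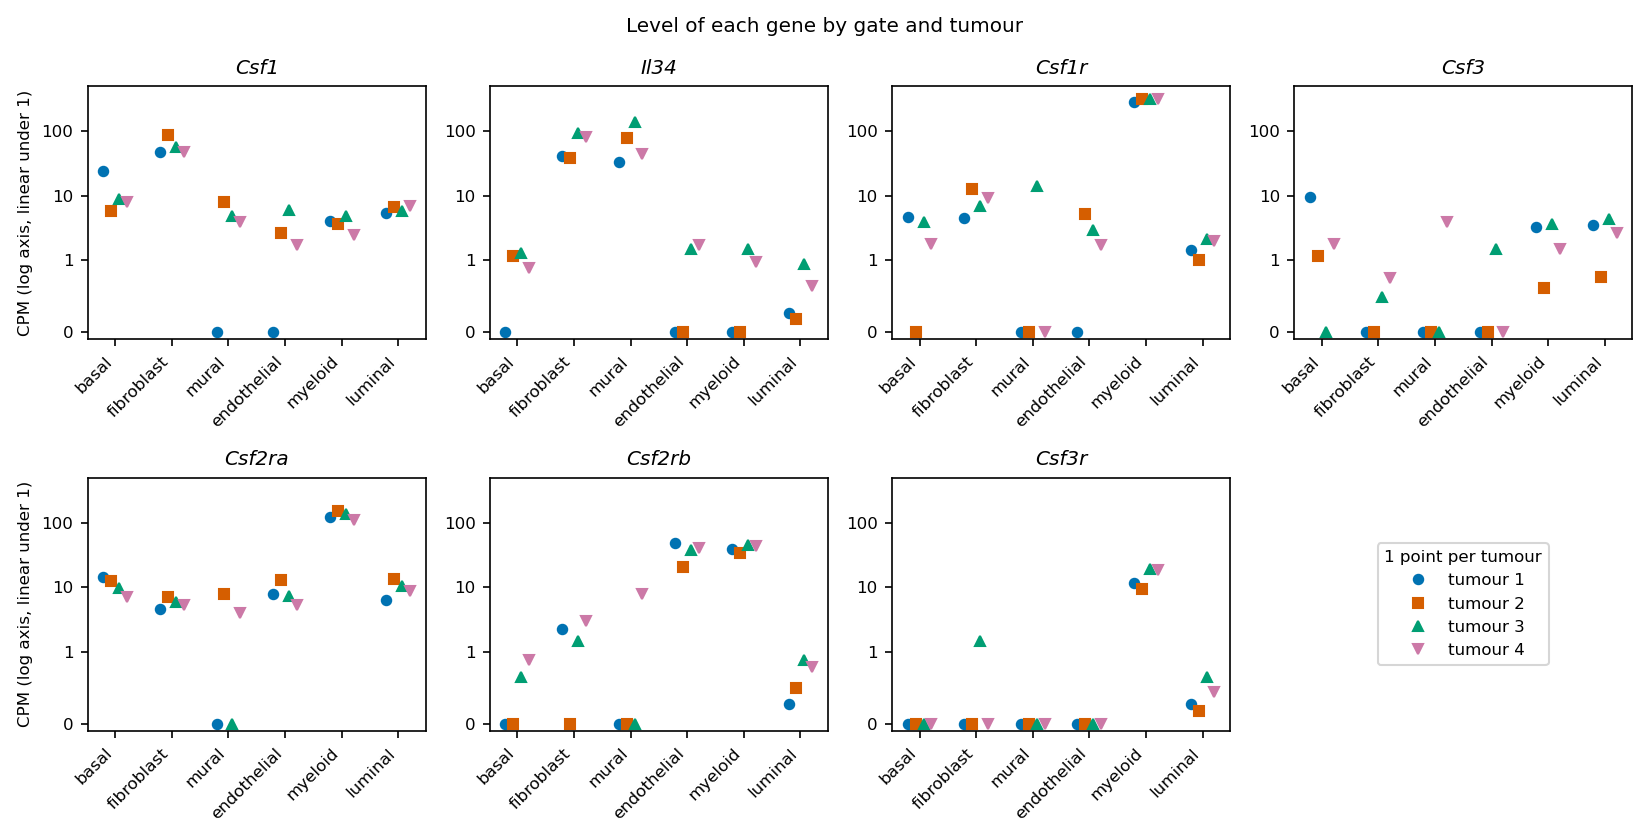
Level of the 7 genes in 6 gates, in CPM (log axis, linear under 1), 1 point per tumour. Csf1 peaks in fibroblasts, Il34 in fibroblast and mural cells, Csf1r, Csf2ra and Csf3r in myeloid cells, and Csf2rb in myeloid and endothelial cells.

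Il34, the other CSF1R ligand, was highest in fibroblasts and mural cells and stood under 2 CPM in the other 4 gates. In the mural gate it stood at 32.9, 79.6, 139 and 43.8 CPM in tumours 1 to 4, from 3, 10, 29 and 11 UMIs. In the fibroblast gate it stood at 41.3, 38.2, 93.0 and 79.8 CPM, from 18, 27, 191 and 105 UMIs. The gates overlapped, and both lay above the luminal gate, at 0.272, 0.177, 0.95 and 0.641 CPM, in every tumour. Against luminal cells the log2 difference was 7.01 in fibroblasts (SE 0.29, edgeR adjusted p = 3.52e-16) and 7.01 in mural cells (SE 0.39, edgeR adjusted p = 8.27e-13), higher in 3 of 3 mice in each. In the mural comparison 15.4% of all genes were called, and Il34 was the 1 member called of 5 tested.

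Mural and fibroblast levels of Il34 were 66.5 ± 29.3 and 55.8 ± 27.8 CPM (SD, n = 3 mice), with a fitted difference of -0.00 on the log2 scale (SE 0.50, fibroblast minus mural, edgeR adjusted p = 1). The next gate was basal, at 0.757 ± 0.656 CPM (edgeR adjusted p = 1.02e-10 against fibroblasts). Both glands of mouse 3 had high fibroblast levels. The mural level was higher in the thoracic gland than in the inguinal gland, with exact 95% Poisson intervals of 92.9 to 199 and 21.9 to 78.4 CPM that cover counting error only. With 1 library per gland this was not tested. Fibroblasts held 42.9% to 67.7% of the Il34 UMIs of a tumour and mural cells 7.10% to 18.9%. Ungated cells stood at 2.64, 4.67, 8.75 and 3.38 CPM and held 42.9%, 13.2%, 13.6% and 10.97% of the Il34 UMIs, in tumour 1 as large a share as the fibroblasts. Il34 is overlapped by 2 antisense genes, and whether counting separated their reads by strand is not given in the sources used here.

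Csf1 and Il34 were seen in the same fibroblasts about as often as Csf1 was seen in all fibroblasts. Over the 4 tumours 227 of 1495 fibroblasts held a Csf1 UMI, 296 an Il34 UMI and 50 both. Of the Il34 cells 16.9% held Csf1, against 15.2% of all fibroblasts, a description without a test. Fibroblasts were divided into those with Dpt or Clec3b, genes of adventitial fibroblasts, and those with Postn or Lrrc15, genes of matrix-rich tumour fibroblasts. Csf1 stood at 109, 58.4, 63.6 and 183 CPM in the Dpt/Clec3b cells and at 49.2, 86.2, 56.6 and 40.1 CPM in the Postn/Lrrc15 cells. Il34 stood at 0, 29.2, 50.9 and 0 CPM in the first kind and at 59.8, 52.5, 95.7 and 88.9 CPM in the second. The Il34 values did not overlap between the kinds, but they rest on 0 to 4 UMIs per tumour in the first. Neither gene passed, with a log2 difference of 0.56 (SE 0.41, edgeR adjusted p = 0.554) for Csf1 and -1.36 (SE 0.49, edgeR adjusted p = 0.123) for Il34, where 10.3% of all genes were called.

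**Figure D2:**
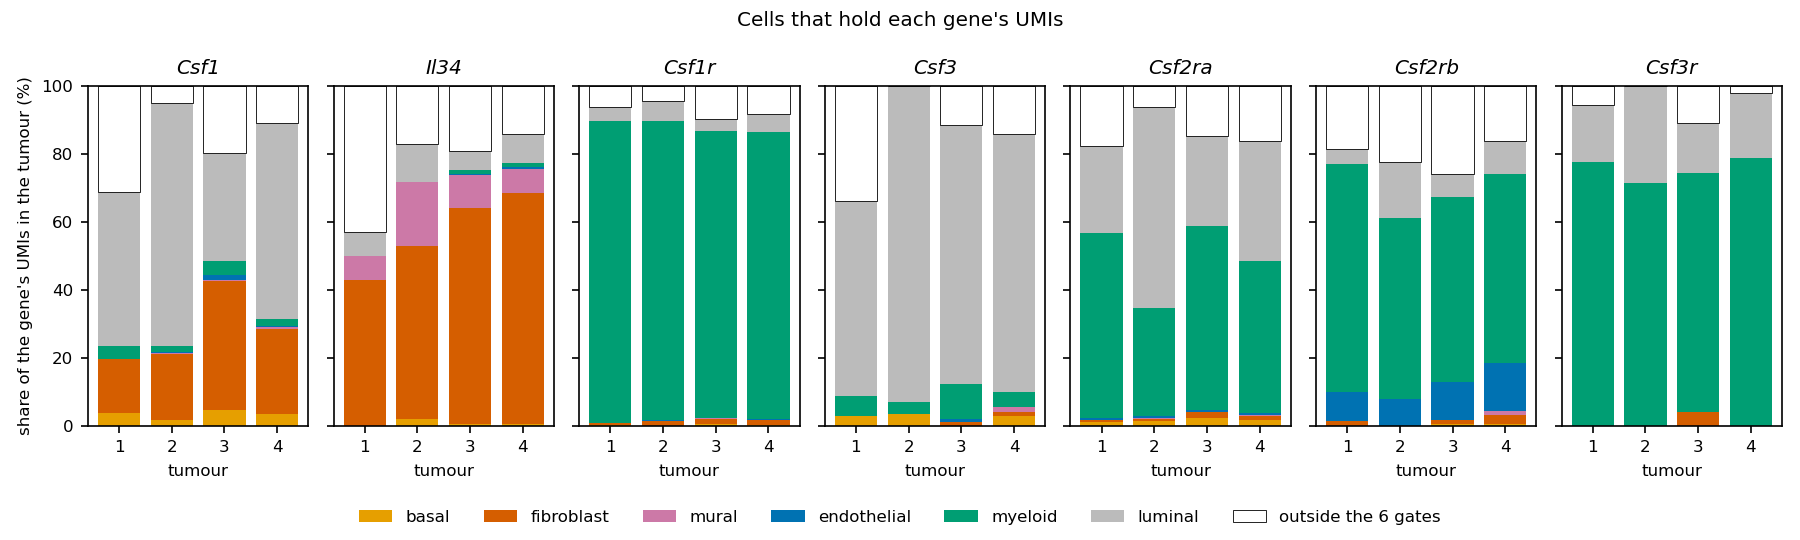
Share of each gene's UMIs in a tumour (percent) held by each gate, 1 bar per tumour. Luminal cells hold 31.7% to 71.2% of Csf1, fibroblasts 42.9% to 67.7% of Il34, and myeloid cells 84.5% to 88.9% of Csf1r.

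Csf3, the ligand of the G-CSF receptor, was rare in every gate. In the luminal gate it stood at 3.53, 0.768, 4.40 and 2.66 CPM, from 39, 26, 74 and 54 UMIs. In the myeloid gate it stood at 3.29, 0.617, 3.68 and 1.48 CPM, from 4, 1, 10 and 3 UMIs in 1, 1, 5 and 3 cells. The gates overlapped, and tumour 2 was the lowest in both. Luminal cells held 57.4% to 92.9% of its UMIs, although 0.242% to 1.29% of them held one, and ungated cells held 0% to 33.8%. Csf3 did not pass the low-count filter. Without that filter it was lower in fibroblasts than in luminal cells, by -2.79 on the log2 scale (SE 0.79, edgeR adjusted p = 0.00265, lower in 3 of 3 mice), where 22.8% of all genes were called. Fibroblasts held 0, 0, 1 and 1 UMIs, so this fitted value depends on the prior count and is no bound, and the median over all genes in this fit was -0.42.

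That fit gave -0.08 for myeloid cells (SE 0.44, edgeR adjusted p = 0.943) and -1.06 for the basal gate (SE 0.66, edgeR adjusted p = 0.618), although basal CPM was above luminal CPM in 2 of 3 mice, with 2, 1, 0 and 2 UMIs in tumours 1 to 4. Csf2, the ligand of Csf2ra, had 1 UMI in tumour 3, 1 in tumour 4 and 0 in tumours 1 and 2.

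Csf1r, the receptor of CSF1 and IL-34, was a gene of the myeloid gate. It stood at 278, 318, 318 and 310 CPM in myeloid cells of tumours 1 to 4, from 338, 516, 864 and 630 UMIs. Fibroblasts came next, at 4.58, 12.7, 6.82 and 9.12 CPM, from 2, 9, 14 and 12 UMIs. The luminal gate stood at 1.45, 1.00, 2.14 and 1.97 CPM, so that every myeloid value was far above all others. The difference from the luminal gate was 7.91 on the log2 scale (SE 0.23, edgeR adjusted p = 6.46e-19, higher in 3 of 3 mice), in a comparison that called 43.6% of all genes and 3 of the 5 tested members. Myeloid cells held 84.5% to 88.9% of the Csf1r UMIs of each tumour, and 34.8% to 59.5% of them held at least 1 UMI, against 0.407% to 0.876% of luminal cells. With cells thinned to 1000 UMIs the myeloid share was 24.9% to 29.9%. Csf1r lies on chromosome 18 and overlaps Hmgxb3 on the other strand, and whether counting separated their reads by strand is not given in the sources used here.

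Low Csf1r in fibroblasts was called against the luminal gate, at 2.35 (SE 0.38, edgeR adjusted p = 1.18e-05, higher in 3 of 3 mice), where all 4 tumours were higher. Against the basal gate the fibroblast gate was higher in 2 of 3 mice (basal minus fibroblast -1.80, SE 0.55, edgeR adjusted p = 0.0130), and this adjusted p ranged from 0.000337 to 0.395 over 15 alternatives, where 35.7% of all genes were called. Myeloid markers stood at 69.3 to 242 CPM in fibroblasts, with 6 or 7 of 8 detected and Adgre1 or Mrc1 at 0 in each tumour, at 75.1 to 151 CPM in luminal cells and at 18647 to 25904 CPM in myeloid cells. Per 1000 UMIs of 8 myeloid markers, Csf1r had 37.7, 184, 28.2 and 73.6 UMIs in fibroblasts and 12.05, 17.1, 12.3 and 13.2 in myeloid cells of tumours 1 to 4. All 4 fibroblast ratios were above all 4 myeloid ratios, on 53, 49, 497 and 163 marker UMIs in fibroblasts. The markers include C1qc, and cells were placed in or out of the myeloid gate by C1qa and C1qb. The gate rule can therefore by itself raise this ratio outside the myeloid gate, and the source of fibroblast Csf1r was not tested. A setting chosen after the data were seen left cells with Ptprc, Tyrobp or Fcer1g out of every non-myeloid gate, the luminal one included. There the fibroblast difference from the luminal gate was 2.86 (SE 0.39, edgeR adjusted p = 8.40e-07). Gate levels in that setting are not given, so the shift from 2.35 cannot be assigned to either gate. In luminal cells the ratio was 12.8, 13.4, 14.2 and 17.3, within or close to the range of the myeloid gate.

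**Figure D3:**
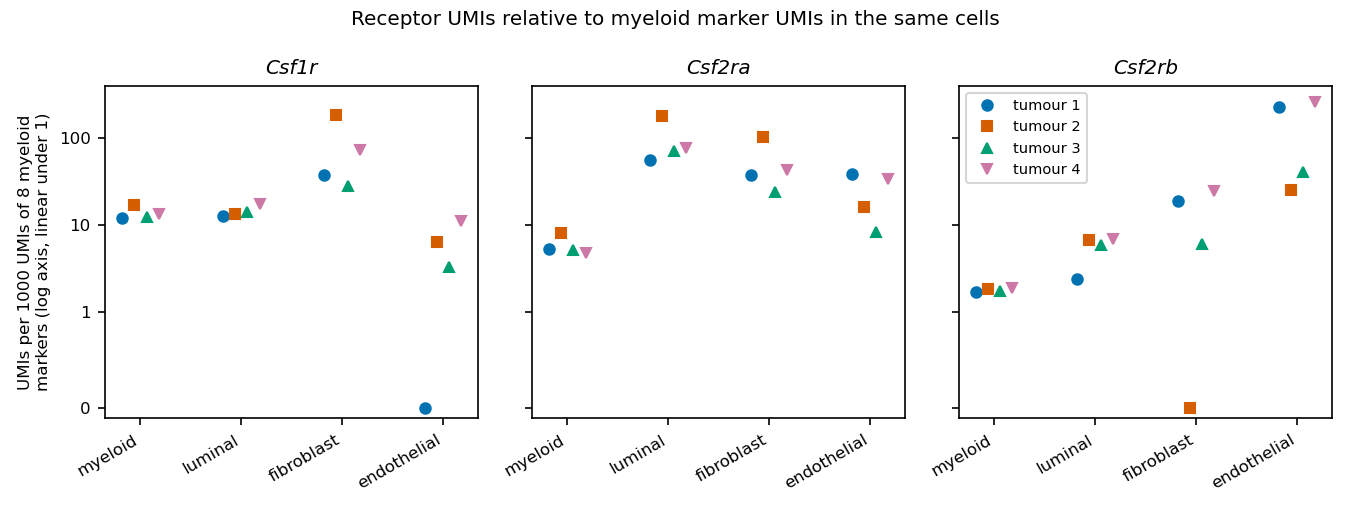
UMIs of Csf1r, Csf2ra and Csf2rb per 1000 UMIs of 8 myeloid markers in the same gate (log axis, linear under 1), 1 point per tumour. Luminal Csf1r ratios of 12.8 to 17.3 overlap the myeloid ones. Endothelial Csf2rb ratios of 25.5 to 258 lie above the myeloid ones, as do the luminal Csf2rb ratios of 2.40 to 6.93. The markers include C1qc, and C1qa and C1qb set the myeloid gate.

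Csf2ra, the specific chain of the GM-CSF receptor, was also highest in myeloid cells, at 122, 152, 135 and 111 CPM in tumours 1 to 4. In the luminal gate it stood at 6.34, 13.6, 10.6 and 8.78 CPM, from 70, 459, 179 and 178 UMIs. All myeloid values were above all luminal ones, by 4.00 on the log2 scale (SE 0.15, edgeR adjusted p = 4.00e-17, higher in 3 of 3 mice). Over the other gates it ran from 11.8 ± 2.93 CPM (SD, n = 3 mice) in the basal gate to 3.38 ± 4.11 in the mural gate. No neighbours in this order differed below the myeloid gate (edgeR adjusted p of 0.342 to 0.998). Without cells that also met the luminal gate, mural (-8.72, edgeR adjusted p = 0.0300) and endothelial cells (-1.41, edgeR adjusted p = 0.0383) were called lower than luminal cells. The mural gate held 0, 1, 0 and 1 UMIs before those cells were left out, so its fitted size is uncertain. Myeloid cells held 54.4%, 31.7%, 54.1% and 44.7% of the Csf2ra UMIs, and luminal cells held 25.7%, 59.2%, 26.5% and 35.4%. In tumour 2, where luminal cells made up 82.0% of the cells kept, the luminal share was thus the larger.

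Luminal Csf2ra did not keep the ratio of the myeloid gate. Per 1000 UMIs of myeloid markers it had 56.1, 181, 70.6 and 77.1 UMIs in luminal cells and 5.28, 8.13, 5.20 and 4.72 in myeloid cells. The limit given for this ratio with Csf1r holds here too. Fibroblasts stood at 4.58, 7.07, 5.84 and 5.32 CPM and were called lower than luminal cells, by -0.76 (SE 0.27, edgeR adjusted p = 0.0238, lower in 3 of 3 mice). This call was lost under RLE scaling (-0.63) and in the other settings named in the closing section, and the adjusted p ranged from 0.00866 to 0.287 over 15 alternatives.

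Csf2rb, the beta chain shared by the GM-CSF, IL-3 and IL-5 receptors, marked both myeloid and endothelial cells. It stood at 38.7, 33.9, 44.9 and 44.3 CPM in the myeloid gate, from 47, 55, 122 and 90 UMIs. It stood at 47.7, 20.9, 37.1 and 40.2 CPM in the endothelial gate, from 6, 8, 25 and 23 UMIs. These gates overlapped, and both were above the luminal gate, at 0.272, 0.502, 0.891 and 0.789 CPM. Against luminal cells the log2 difference was 6.23 in myeloid cells (SE 0.25, edgeR adjusted p = 1.37e-16) and 5.51 in endothelial cells (SE 0.34, edgeR adjusted p = 1.87e-12), higher in 3 of 3 mice in each. Fibroblasts stood at 2.29, 0, 1.46 and 3.04 CPM and were not called (1.30, SE 0.59, edgeR adjusted p = 0.0711), though they were in 5 of 15 alternatives. Of all genes 34.1% were called in the endothelial comparison, and Csf2rb was the 1 member called of 5 tested.

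Endothelial and myeloid levels of Csf2rb lay close together, at 35.7 ± 13.6 and 39.1 ± 5.37 CPM (SD, n = 3 mice). The fit put the endothelial gate lower by -0.71 on the log2 scale (SE 0.26, edgeR adjusted p = 0.0443) after TMM scaling, where 28.7% of all genes were called. In CPM the endothelial gate was higher in 1 of 3 mice, and the adjusted p ranged from 0.0283 to 0.444 over 15 alternatives. Endothelial cells with a Csf2rb UMI made up 6.61% to 11.7% of the gate, against 0.0822% to 0.387% of luminal cells at a higher depth (median 1440 to 2703 UMIs against 2655.5 to 3664). Myeloid markers stood at 155 to 899 CPM in the endothelial gate, with 6 to 8 of 8 detected, above the luminal gate in every tumour. Per 1000 UMIs of them, Csf2rb had 231, 25.5, 41.3 and 258 UMIs in endothelial cells and 1.68 to 1.89 in myeloid cells. Luminal cells had 2.40, 6.69, 5.91 and 6.93, also above the myeloid gate, and fibroblasts had 18.9, 0, 6.04 and 24.5. The markers include C1qc, and the myeloid gate was itself set by C1qa and C1qb. With cells holding leukocyte genes left out of both gates, the setting chosen after the data were seen, the endothelial difference from the luminal gate was 6.32 (SE 0.37, edgeR adjusted p = 1.23e-12). The level of each gate in that setting is not given.

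Csf2ra, unlike Csf2rb, was not called higher in endothelial than in luminal cells. Csf2ra stood at 7.94, 13.1, 7.42 and 5.24 CPM there, overlapping the luminal values, with a log2 difference of -0.46 (SE 0.35, edgeR adjusted p = 0.342). Of 629 endothelial cells 60 held Csf2rb, 12 held Csf2ra and 1 held both. Csf2ra was thus found in 1.67% of the Csf2rb cells, against 1.91% of all endothelial cells, a description without a test. Il3ra, the specific chain of the IL-3 receptor, was higher in endothelial than in luminal cells, at 38.5 ± 15.3 against 1.24 ± 0.307 CPM (SD, n = 3 mice), by 4.53 (SE 0.42, edgeR adjusted p = 3.94e-09). It was also higher in fibroblasts, at 45.8 ± 27.6 CPM (log2 difference 5.01, edgeR adjusted p = 3.91e-12), where Csf2rb stood at 1.46 ± 1.27 CPM. Csf2rb has a close relative, Csf2rb2, whose transcript shares 32.6% of the 25-base words of Csf2rb overall and 2.52% in the last 500 bases, the 3′ end of the transcript. The split of reads between them is therefore uncertain.

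Csf3r, the receptor of CSF3, had most of its UMIs in the myeloid gate and was rare there. It stood at 11.5, 9.25, 19.1 and 18.2 CPM in myeloid cells, from 14, 15, 52 and 37 UMIs, and at 0.272, 0.177, 0.653 and 0.444 CPM in luminal cells. The groups did not overlap, and both glands of mouse 3 were the highest. Basal, mural and endothelial gates held 0 UMIs. Csf3r did not pass the low-count filter. Without that filter it was higher in myeloid than in luminal cells, by 5.39 on the log2 scale (SE 0.39, edgeR adjusted p = 2.59e-41, 3 of 3 mice). In that fit 19.5% of all genes were called. The p-values of that fit should not be compared in size with those of the filtered fit. With 3 mice and 118 myeloid UMIs, the size of this p-value is not taken as a measure of spread between mice. Myeloid cells held 70.3% to 78.7% of the Csf3r UMIs.

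**Figure D4:**
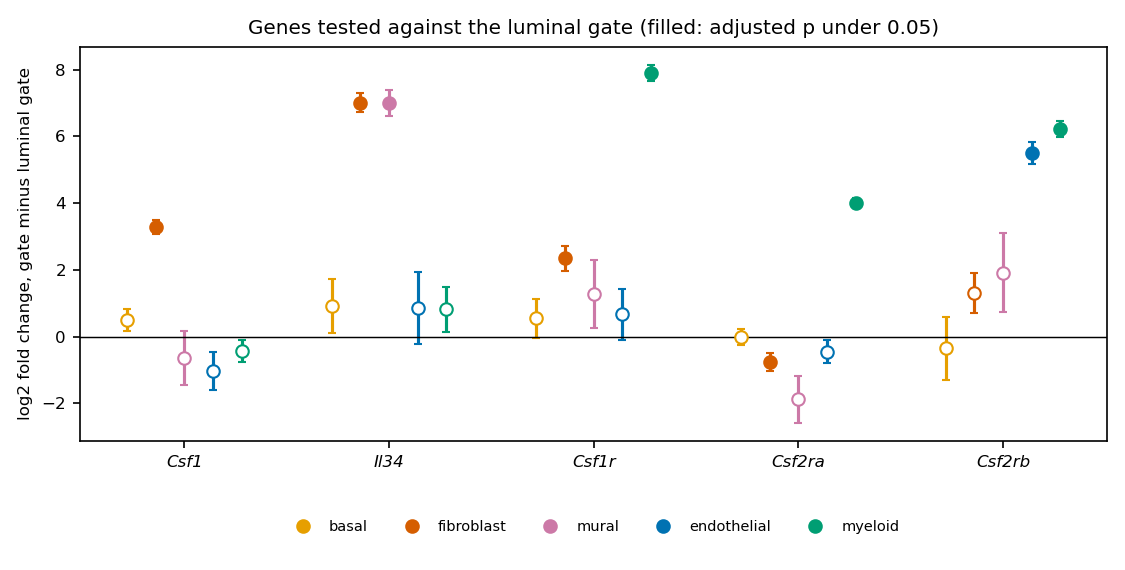
Log2 difference of each gate from the luminal gate for the 5 members that passed the low-count filter, with bars of 1 standard error. Filled points have an edgeR adjusted p under 0.05, and they include Csf1 in fibroblasts at 3.29, Il34 in fibroblast and mural cells at 7.01 and Csf2rb in endothelial cells at 5.51.

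No member was called in the basal gate against the luminal gate, where 7.07% of all genes were called. The log2 differences of the 5 tested members ran from -0.35 (SE 0.94) for Csf2rb to 0.92 (SE 0.80) for Il34. Over the 15 pairs of the 6 gates, with 5 tested members in each, 35 member differences were called, and 26.5% of all gene results were.

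Within the myeloid gate Csf1r and Csf2ra took a larger share of the UMIs in cells where MHC class II, the antigen presentation genes, took a larger share, while their UMIs summed over the tumours were nearly equal. Cells of each tumour were divided at the median share of UMIs from H2-Aa, H2-Ab1 and H2-Eb1. Csf1r stood at 336, 393, 373 and 352 CPM in the class II-high part and at 238, 270, 280 and 274 CPM in the class II-low part. The parts did not overlap. The class II-high part held fewer UMIs in all, 499909, 638775, 1102439 and 941579 in tumours 1 to 4 against 715738, 983247, 1615092 and 1092204. Csf1r had 1161 UMIs in 1503 class II-high cells and 1187 in 1505 class II-low cells. It had more in the class II-high part in tumour 4 (331 against 299) and fewer in tumours 1 to 3. The cause of the CPM gap was not tested. Cells with a Csf1r UMI made up 35.8% to 60.1% and 33.8% to 58.9%, and 28.9% to 33.0% and 21.7% to 27.0% after thinning to 1000 UMIs, where 104 and 37 shallower cells of tumour 1 were left out. The CPM difference was 0.61 on the log2 scale (SE 0.11, edgeR adjusted p = 0.00511, higher in 3 of 3 mice), where 4.51% of all genes were called. Csf2ra stood at 158, 218, 151 and 115 CPM against 96.4, 109, 123 and 107 CPM, higher in every tumour but with overlapping groups. Its UMIs were 79, 139, 167 and 108 against 69, 107, 199 and 117, or 493 against 492 in all. Its difference was 0.73 (SE 0.17, edgeR adjusted p = 0.0182). Csf2rb (0.39, SE 0.19, edgeR adjusted p = 0.330) and Csf3r (0.11, SE 0.33, edgeR adjusted p = 0.934) did not pass. Without the mouse term neither Csf1r nor Csf2ra passed, and without mouse 1 neither did. The Csf2ra call was also lost without mouse 2 (0.48, edgeR adjusted p = 0.0937) and in DESeq2 (0.76, adjusted p = 0.0763).

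Cells in none of the 6 gates with 20 or more UMIs of H2-Aa, H2-Ab1 and Cd74 had less Csf1r than the myeloid gate. They are called C1q-low class II cells. Of 8 dendritic cell markers 4 to 6 were detected in them, at 611 to 759 CPM against 82.6 to 169 CPM in the myeloid gate, with Clec9a, Ccr7, Zbtb46, Xcr1 or Flt3 at 0 in some tumours. Myeloid markers stood at 13023 to 14796 CPM. Csf1r stood at 120, 96.3, 137 and 204 CPM in these 281 cells, below every myeloid value. The difference was -1.20 (SE 0.20, edgeR adjusted p = 0.000424, lower in 3 of 3 mice), in a comparison that called 9.46% of all genes. Csf2rb stood at 37.0, 156, 114 and 67.9 CPM and was higher than in the myeloid gate by 1.31 (SE 0.31, edgeR adjusted p = 0.0100, 2 of 3 mice). Tumour 1 was the exception, with 4 UMIs. The Csf2rb call was lost without mouse 2 (0.95), without mouse 3 (1.41), without tumour 3 (1.19) and in DESeq2 (1.26). Csf2ra stood at 46.2, 178, 174 and 195 CPM, a difference of 0.17 (SE 0.25, edgeR adjusted p = 0.791).

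**Figure D5:**
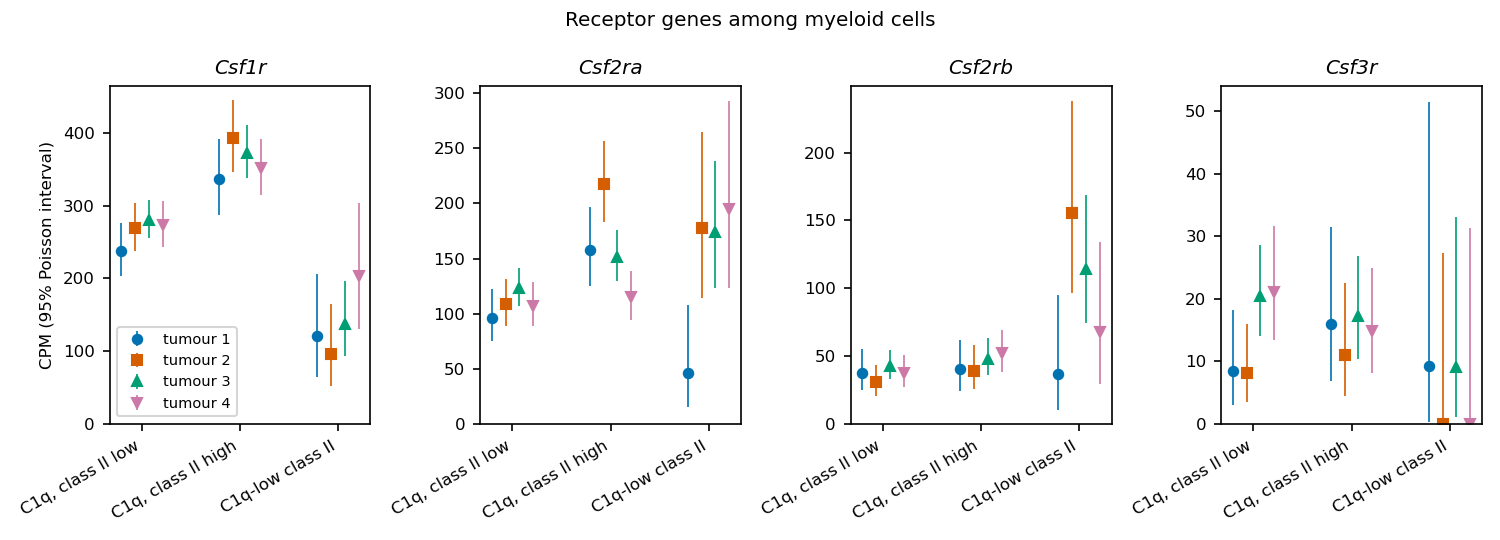
CPM of 4 receptor genes in the class II-low and class II-high parts of the myeloid gate and in C1q-low class II cells, 1 point per tumour with exact 95% Poisson intervals. Csf1r is 336 to 393 CPM in the class II-high part, 238 to 280 in the class II-low part and 96.3 to 204 in C1q-low cells.

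Of 3008 myeloid cells 1519 held Csf1r, 802 Csf2ra, 288 Csf2rb and 114 Csf3r. Csf1r was found in 52.6% of the Csf2ra cells, 55.2% of the Csf2rb cells and 58.8% of the Csf3r cells, against 50.5% of all myeloid cells. Tumours differed: in tumour 1 Csf1r was found in 27.6% of the Csf2ra cells against 34.8% of all, and in tumour 2 in 56.5% of the Csf2rb cells against 59.5%. These shares also follow the depth of a cell and are given without a test.

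A list of 28 signalling and transcription factor genes was described, of which 27 were tested, and not all of them act downstream of the receptors. In myeloid cells 15 were higher and 4 lower than in luminal cells, with a median log2 difference of 1.02 against -0.05 over all genes, of which 43.6% were called. The higher ones included Tyrobp, a signalling adaptor of myeloid cells and 1 of the 8 myeloid markers, at 4536 ± 319 CPM (log2 difference 7.86). They also included Spi1, which encodes PU.1, at 248 ± 25.2 CPM (7.85), and Irf8, a myeloid transcription factor gene, at 208 ± 33.9 CPM (7.72). Stat3, a transcription factor gene downstream of Csf3r, was lower, at 113 ± 42.3 against 199 ± 36.6 CPM (-0.62, edgeR adjusted p = 0.00177). Counts in the other gates were 9 higher and 7 lower in fibroblasts, where 49.9% of all genes were called, 8 and 7 in endothelial cells (34.1%), 4 and 2 in mural cells (15.4%) and 1 and 0 in the basal gate (7.07%).

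Of 12 further ligand and receptor genes 4 could be tested. All differences here are from the luminal gate, in comparisons whose shares of all genes called are given above. Sdc1, a proteoglycan reported to bind IL-34, was higher in fibroblasts (106.7 ± 61.8 CPM, log2 difference 2.41, edgeR adjusted p = 1.12e-10) and in the basal gate (1.49, edgeR adjusted p = 2.60e-05). Sdc1 was lower in myeloid cells (-0.98, edgeR adjusted p = 0.00199) and in endothelial cells (-0.90, edgeR adjusted p = 0.0470, lower in 2 of 3 mice). Kit, the receptor of stem cell factor and a relative of Csf1r, was lower in fibroblasts (-1.79), myeloid cells (-1.32) and mural cells (-1.26). Kitl, its ligand, was higher in endothelial cells (0.59, edgeR adjusted p = 0.0288) and lower in myeloid cells (-1.36) and fibroblasts (-0.62, edgeR adjusted p = 0.0131). Il3ra, given above for endothelial cells and fibroblasts, was also higher in myeloid cells (3.06, edgeR adjusted p = 3.34e-07).

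The genes whose levels ran most like each member over 18 gate and mouse profiles were found by Pearson r of log2(CPM + 1) across 10311 genes. Those most like Csf1 were Fzd2 (r = 0.95), Tcea3, Sfrp1, Azin2 and Irak1bp1 (r = 0.93). Those most like Il34 were Cd248 and Heyl (r = 0.99), Col5a3, 4833422C13Rik and Ebf2 (r = 0.98). The leading gene was Ncf4 for Csf1r (r = 0.95), Vsir for Csf2ra (r = 0.92) and Hcls1 for Csf2rb (r = 0.98). The profiles share mice and libraries, so these values carry no test.

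In GRCm38 with GENCODE vM21 the members lie at chromosome 3, 107741048 to 107760469 (Csf1, ENSMUSG00000014599, minus strand), chromosome 8, 110741829 to 110805924 (Il34, ENSMUSG00000031750, minus strand), and chromosome 11, 98701263 to 98703629 (Csf3, ENSMUSG00000038067, plus strand). Csf2ra (ENSMUSG00000059326) lies at chromosome 19, 61223957 to 61228429 on the minus strand, and Csf2rb (ENSMUSG00000071713) at chromosome 15, 78325752 to 78353847 on the plus strand. Csf3r (ENSMUSG00000028859) lies at chromosome 4, 126024550 to 126044440 on the plus strand, and Csf1r is ENSMUSG00000024621. All are protein-coding genes.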

How the data were processed

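Single-cell RNA was measured in 4 tumour libraries of 3 mice. The files that the authors deposited hold unnormalised UMI counts, made with Cell Ranger 2.2.0 on mm10 (GRCm38), with FastQC, per the submitters' processing notes. A minimum of 300 detected genes and a limit of 15% for mitochondrial UMIs removed 24 barcodes. No doublet caller was run, and cells in several non-luminal gates were left out. Levels are CPM of UMIs summed over the cells of a gate and tumour, with exact 95% Poisson intervals, and shares of cells carry exact Clopper-Pearson intervals in the tables. Both cover counting error only.

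For tests, counts were summed per mouse and gate with at least 20 cells, tumours 3 and 4 together, and fitted in edgeR 4.0.16 (R 4.3.3, TMM, filterByExpr, quasi-likelihood test), blocking on the mouse, since the labels tie each library to an animal. Benjamini-Hochberg adjustment ran over 10322 genes for gates, 6123 for class II parts, 2525 for fibroblast kinds and 5816 for C1q-low cells, with calls at 0.05. A fit without the low-count filter (30847 genes) served for Csf3 and Csf3r. Log2 differences include TMM scaling, which CPM values do not. Every kind of contrast was tested on simulated counts that held mouse effects. DESeq2 1.42.0 was an alternative.

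Text names the 7 members, up to 4 genes per list and comparison by highest level among those called, and the genes most like each member. The members and lists were chosen with earlier results of these data known. Gene IDs matched GENCODE vM21 for 55230 of 55472 entries.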

Additional observations from a re-analysis of the deposited data

Results flagged for a closer look

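Of 36 groups of 4 tumours examined for a value far from the rest, 2 stood out. A rate of about 1 group in 20 by chance holds for normally distributed values and not for counts such as these. The rule flags any group with 3 or more UMIs in 1 tumour and 0 in the others. Csf1r in the mural gate stood at 14.3 CPM in tumour 3, from 3 UMIs, and at 0 in the other tumours. Csf3r in the fibroblast gate stood at 1.46 CPM in tumour 3, from 3 UMIs, and at 0 in the others.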

How the results depend on the processing

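Of 13 called member differences from the luminal gate or within sub-comparisons, 153 of 171 alternative values kept the call, 18 lost it and 0 reversed. Of 21 that were not called, 242 of 284 kept direction and side, 12 passed the threshold and 30 changed sign. Counts of members called that moved by over 1.5 times were as follows. With cells of several gates given to the first gate, 1 was called in the basal gate (0 in the report), 3 in the mural gate and 2 in the endothelial gate. Without cells that also met the luminal gate, 2 were called in the mural, 2 in the endothelial and 5 in the myeloid gate. DESeq2 called 1 in the class II comparison and 1 in the C1q-low comparison. Leaving out 1 mouse at a time gave 0 to 2 class II calls and 1 to 2 C1q-low calls, and without tumour 3 there was 1 C1q-low call. Without the replicate block (the mouse term) there were 0 class II calls among the members, and over all 6123 genes 23 were called higher and 1 lower, against 182 and 94 with it. The fibroblast count ran from 3 to 5 over its alternatives and was 3 without the block. The cause of these moves was not tested.

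The changes of sign were all in differences that were not called, and leave-one-out ranges of these follow. Basal Csf1 was -0.38 with thresholds doubled (0.26 to 0.64 leaving out 1 mouse). Basal Csf1r was -0.35 without mouse 3, up to 0.64 without mouse 2, -0.15 without tumour 3, -0.73 with thresholds doubled and -0.74 without leukocyte-gene cells. Basal Csf2ra was 0.024 with RLE scaling, 0.047 in DESeq2, -0.18 to 0.17 leaving out 1 mouse, 0.028 without tumour 4, 0.030 without the replicate block, 0.051 by first gate and 0.017 with leukocyte-gene cells left out of the luminal gate. Basal Csf2rb was 0.45 without cells that also met the luminal gate, 0.48 by first gate and 0.39 with leukocyte-gene cells left out of the luminal gate. Leaving out 1 mouse, mural Csf1r ran from -5.32 to 1.55, mural Csf2rb from -4.01 to 2.15, endothelial Il34 from -3.01 to 0.95, endothelial Csf1r from -0.039 to 1.54, myeloid Il34 from -2.99 to 0.98, Csf1 between fibroblast kinds from -0.015 to 1.15 and Csf2ra in C1q-low cells from -0.34 to 0.44. Csf3r between class II parts was -0.044 without mouse 1 and -0.033 without mouse 2. Mural Csf1r was -5.65 without tumour 3, mural Csf2rb was -4.43 without tumour 4, endothelial Il34 was -4.72 with thresholds doubled, endothelial Csf1r was -0.77 without leukocyte-gene cells, and Csf2ra in C1q-low cells was -0.053 without the low-count filter.

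Fibroblast Csf2ra, called at -0.76, was no longer called with RLE scaling (-0.63), in DESeq2 (-0.62), without mouse 2 (-0.73), without mouse 3 (-0.74), without tumour 3 (-0.72), without the replicate block (-0.79), by first gate (-0.56) and with thresholds doubled (-0.87). Fibroblast Csf2rb, not called at 1.30, was called in DESeq2 (1.47), without cells that also met the luminal gate (1.55), by first gate (1.77) and with leukocyte-gene cells left out of the luminal gate (2.03) or of all non-myeloid gates (2.16). RLE scaling moved the median of all genes by 0.12 in fibroblasts and 0.14 in mural cells, and leaving out the low-count filter moved it by -0.65 to -0.33 over the 5 gates. Granulocytes were not compared with the myeloid gate, since 2 of 3 mice had 14 and 7 cells. Mural, endothelial and C1q-low values rest on few UMIs, and 3 mice limit every test.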

Other observations

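Csf2rb2, the close relative of Csf2rb that serves the IL-3 receptor in mice, was also higher in the endothelial and myeloid gates than in the luminal gate in every tumour. It stood at 23.8, 5.23, 14.8 and 10.5 CPM in the endothelial gate of tumours 1 to 4, from 3, 2, 10 and 6 UMIs, and at 2.47, 6.78, 6.99 and 9.83 CPM in the myeloid gate. Luminal values were 0.148 to 0.543 CPM. The gene did not pass the low-count filter and was not tested. The pseudogene entry Csf1r-ps held 0 UMIs in every tumour.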
